A study of Mus musculus with 8 samples.

Results

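The 9 genes described here are Ldha, Slc16a1, Hk1, Acot7, Oat, Maf, Cd81, Aldh1a3 and Neurog3, of 19945 genes in a count table of mouse islet cells. They were taken by name, as genes that mature β-cells keep low (the first 7, the "disallowed" genes) and as genes reported in β-cells that lose their mature state (Aldh1a3 and Neurog3). All 9 were found in the table. The study treated wild-type mice, 6 to 12 weeks old at the start, with vehicle or with the focal adhesion kinase inhibitor PF562271 (FAKi), given by gavage at 50 mg/kg in 2 doses a day for 3 weeks. Islets were isolated 10 days after the last dose, pooled from 5 mice per condition, and analysed by droplet-based scRNA-seq. The labels list 8 samples, 4 for each condition, and their titles are read as sequencing lanes of 1 library per condition. There are therefore no biological replicates, and no test across mice is possible.

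Most tissues can turn pyruvate into lactate and export it, and most cells hold a hexokinase that works at low glucose. β-cells are known for keeping this machinery low, so that pyruvate enters mitochondria and insulin release follows the blood glucose level and not circulating lactate or pyruvate. Loss of the mature β-cell state is followed in the field by such genes coming back, together with Aldh1a3, a retinaldehyde dehydrogenase, and in some settings Neurog3, the transcription factor that starts the endocrine fate in the embryonic pancreas.

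The vehicle library holds 3776 cells with 59514118 unique molecular identifiers (UMIs) and the FAKi library 3183 cells with 57836783, where the labels give 8832 and 8437 cells taken into the experiment. The 2 libraries share 4 cell barcodes. The deposited annotation has 12 cell classes. Annotated β-cells, 1076 in vehicle and 1336 in FAKi, form the deposited clusters 0, 1 and 10, and their 8 defining markers (among them Ins1, Ins2 and Pdx1) took 590056 and 602357 CPM, which are UMIs scaled to a total of 1000000 per group of cells. Some labels went against the hormones measured. Cluster 8, annotated as δ-cells, was led by Ppy (278292 CPM in vehicle, 263888 in FAKi), with Sst at 6909 and 7524 CPM, whereas δ-cell cluster 6 held Sst at 213487 and 219821 CPM. Cluster 9, annotated as α-cells, held Sst at 58406 and 45730 CPM. The 28 T cells in FAKi held 456842 CPM of the β-cell markers, and only 9 B cells were annotated there. α- and δ-cells are therefore also described by cluster, and the FAKi T and B cells enter only the ranks, the heatmap, the correlations and 1 value of Oat in the closing section. Below, vehicle and FAKi stand for the libraries.

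A level is the sum of a gene's UMIs over the cells of a group, scaled to the group's own total as CPM, with an exact Poisson 95% interval. A comparison is the ratio of 2 levels with an exact conditional 95% interval. These intervals cover counting error only and not the spread between cells or between mice. Levels are compared between groups of cells for the same gene and not between genes.

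Genome positions are those of GRCm38 with the GENCODE vM21 annotation. Ldha lies at chr7:46841475-46855627 and Oat (chr7:132557478-132576398), Cd81 (chr7:143052739-143067934) and Aldh1a3 (chr7:66390890-66427517) are on the same chromosome. Slc16a1 is at chr3:104638668-104658462, Acot7 at chr4:152178134-152271855 and Maf at chr8:115682942-115707794. Neurog3 (chr10:62133090-62134763) and Hk1 (chr10:62268855-62379908) are on the same chromosome, with 134091 bases between them. RefSeq promoter windows on GRCm38.p6, each 250 bases before to 50 after the start of the gene model, were found for 7 of the 9 genes, all but Maf and Aldh1a3. Promoters of 5 genes are shown because the levels below turn on them. The lactate genes Ldha (chr7:46845554-46845853, plus strand) and Slc16a1 (chr3:104638414-104638713, plus strand) are shown with the letters ACGTG, the core recognised by hypoxia-inducible factors, in capitals on either strand.
Ldha: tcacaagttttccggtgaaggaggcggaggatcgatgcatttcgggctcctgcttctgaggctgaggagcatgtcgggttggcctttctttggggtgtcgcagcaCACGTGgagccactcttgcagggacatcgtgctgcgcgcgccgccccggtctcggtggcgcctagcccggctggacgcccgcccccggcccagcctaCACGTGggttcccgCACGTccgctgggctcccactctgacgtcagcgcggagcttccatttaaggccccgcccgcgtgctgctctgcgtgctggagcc
Slc16a1: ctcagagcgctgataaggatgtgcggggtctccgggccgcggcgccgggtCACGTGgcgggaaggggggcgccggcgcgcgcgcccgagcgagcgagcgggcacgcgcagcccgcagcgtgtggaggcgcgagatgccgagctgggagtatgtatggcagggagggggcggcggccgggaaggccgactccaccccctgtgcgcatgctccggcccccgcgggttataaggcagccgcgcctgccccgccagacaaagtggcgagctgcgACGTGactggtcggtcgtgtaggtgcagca
ACGTG occurred 5 times in the Ldha window shown and 3 times in that of Slc16a1, and 19.6% of 32851 promoter windows held it at least once. The palindrome CACGTG counts as a match on each strand, and it is also a match to the E-box letters CANNTG used for the next pair. A second RefSeq window of Ldha (chr7:46846832-46847131, plus strand), not shown, held no ACGTG and was 56.7% G and C. The windows shown of Ldha and Slc16a1 were 67.3% and 73.7% G and C, against a median of 52.7% over all windows. A match is a description of letters and not a binding site.

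Neurog3 (chr10:62132840-62133139, plus strand) and Acot7 (chr4:152185358-152185657, plus strand, a RefSeq start inside the gene span given above) are shown because both were high in the Sst-rich cells. Capitals mark the E-box letters CANNTG, which basic helix-loop-helix factors such as NEUROG3 itself recognise.
Neurog3: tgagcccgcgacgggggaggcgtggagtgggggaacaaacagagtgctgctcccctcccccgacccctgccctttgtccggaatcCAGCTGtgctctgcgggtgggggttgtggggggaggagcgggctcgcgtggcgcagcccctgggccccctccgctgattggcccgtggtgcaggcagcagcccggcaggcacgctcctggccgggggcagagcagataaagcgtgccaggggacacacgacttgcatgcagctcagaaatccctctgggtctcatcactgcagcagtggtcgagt
Acot7: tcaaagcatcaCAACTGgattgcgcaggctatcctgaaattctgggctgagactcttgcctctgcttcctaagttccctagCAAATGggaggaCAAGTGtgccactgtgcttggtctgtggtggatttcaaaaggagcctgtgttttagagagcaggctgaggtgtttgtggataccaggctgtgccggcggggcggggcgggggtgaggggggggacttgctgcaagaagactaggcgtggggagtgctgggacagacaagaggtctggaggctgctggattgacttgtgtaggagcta
CANNTG occurred once in the Neurog3 window and 3 times in that of Acot7, and 72.3% of all windows held it, so that its presence is common to most promoters.

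Cd81 (chr7:143052500-143052799, plus strand) is shown because it was the member with by far the most UMIs, and capitals mark the GC-box letters GGGCGG.
Cd81: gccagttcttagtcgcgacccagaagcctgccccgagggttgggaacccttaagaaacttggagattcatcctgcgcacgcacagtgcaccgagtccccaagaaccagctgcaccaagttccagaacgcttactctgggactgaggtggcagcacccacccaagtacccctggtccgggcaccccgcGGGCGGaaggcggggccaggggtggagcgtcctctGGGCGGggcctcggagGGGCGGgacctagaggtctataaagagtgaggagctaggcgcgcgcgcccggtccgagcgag
GGGCGG was present 3 times, against 35.7% of all windows with at least 1 match. The window of Cd81 also held TATAAA, found in 13.6% of windows.

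The first question was where each member stood in β-cells compared with the other cells of the same islets. Of the 12 annotated classes, β-cells ranked among the lowest 3 in both libraries for each of the 7 disallowed genes. They were the lowest class for Oat in both libraries, for Acot7 in vehicle and for Ldha in FAKi. Aldh1a3 and Neurog3 did not have this order, since 8 and 9 classes had no UMI of Aldh1a3 and 5 and 9 classes none of Neurog3.

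**Figure D1:**
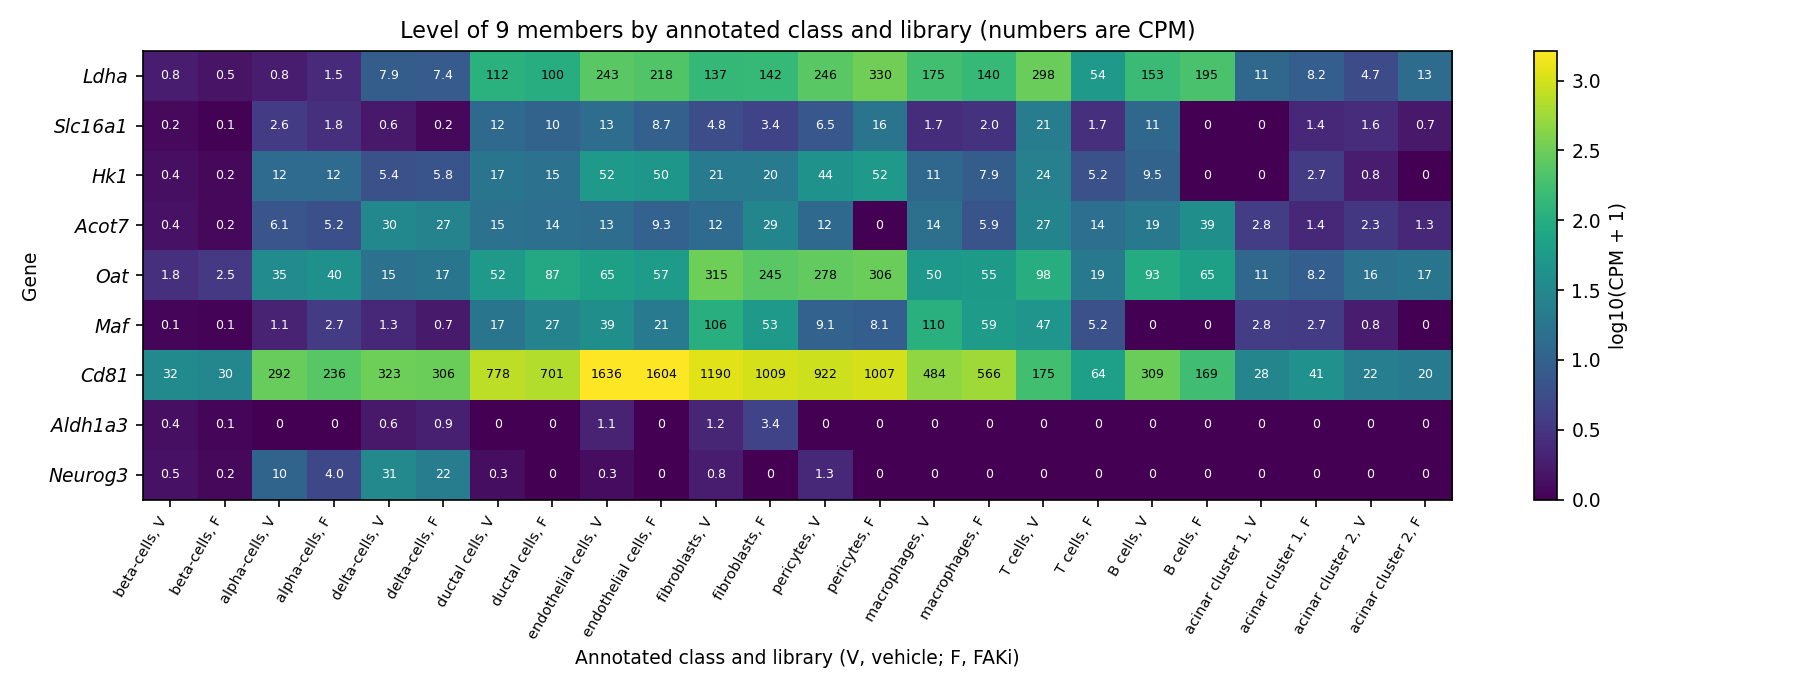
The colour gives log10(CPM + 1) of each of the 9 genes (vertical axis) in each of the 12 annotated classes and 2 libraries (horizontal axis, V for vehicle and F for FAKi), and the number in each box is the CPM. Dark boxes are low and bright boxes high. The columns of β-cells are dark for all genes but Cd81 (32.2 and 29.8 CPM), while Ldha, Oat and Cd81 are bright in endothelial cells, pericytes and fibroblasts.

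Ldha encodes the subunit of lactate dehydrogenase that favours lactate formation. Annotated β-cells held 27 UMIs of it in vehicle, 0.811 CPM (0.535 to 1.18), and 18 UMIs in FAKi, 0.469 CPM (0.278 to 0.741). A UMI was found in 1.86% and 1.05% of β-cells. α-cells were as low in vehicle, with 0.791 CPM. In FAKi the β-cell level was lower than that of α-cells, at a ratio of 0.313 (0.134 to 0.791). Acinar clusters and δ-cells followed at 4.66 to 12.6 CPM. A wide gap lay above them, as ductal cells held 112 and 99.9 CPM, fibroblasts 137 and 142, macrophages 175 and 140, endothelial cells 243 and 218, and pericytes 246 and 330. T cells in vehicle held 298 CPM. Ldha was 299-fold (204 to 457) higher in endothelial cells than in β-cells in vehicle and 464-fold (289 to 793) higher in FAKi. Among endocrine cells Ldha marked δ-cell cluster 6, at 15.2 and 14.6 CPM, against 0.846 and 1.02 CPM in cluster 8.

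Slc16a1 encodes MCT1, which carries lactate and pyruvate across the plasma membrane. Its levels were low in every class. β-cells held 7 UMIs in vehicle and 2 in FAKi, or 0.210 and 0.0521 CPM, while endothelial cells held 13.2 and 8.65 CPM, ductal cells 11.5 and 9.67 CPM and pericytes 6.52 and 16.1 CPM. T cells in vehicle had the highest level there, 21.3 CPM. α-cells lay between, at 2.64 and 1.83 CPM, and the α-cell level was 12.5-fold (4.31 to 38.8) and 35.1-fold (7.67 to 326) above that of β-cells. The intervals of all neighbouring classes in this order overlapped.

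Hk1 encodes hexokinase 1, which phosphorylates glucose with high affinity. β-cells held 0.361 CPM in vehicle (12 UMIs) and 0.156 CPM in FAKi (6 UMIs). The other endocrine classes were clearly higher, with 12.4 and 12.3 CPM in α-cells and 5.36 and 5.78 CPM in δ-cells. The α-cell level exceeded that of β-cells 34.4-fold (18 to 71.2) in vehicle and 78.8-fold (34.5 to 222) in FAKi. Endothelial cells (52.4 and 49.9 CPM) and pericytes (44.3 and 52.4 CPM) held the highest levels, and their intervals overlapped in both libraries.

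Acot7 encodes an acyl-CoA thioesterase, which frees fatty acids from coenzyme A. β-cells had 14 UMIs in vehicle (0.421 CPM) and 6 in FAKi (0.156 CPM). Ductal cells held 14.6 and 13.8 CPM and fibroblasts 12.3 and 29.1 CPM. The endocrine clusters differed among themselves. δ-cell cluster 6 held 61.2 and 55.4 CPM and cluster 8 only 0.423 and 1.36 CPM, a ratio of 145 (25.5 to 5749) in vehicle and 40.8 (15.6 to 152) in FAKi, on 1 and 4 UMIs in cluster 8. α-cell cluster 5 had 1 UMI and 0 UMIs, whereas cluster 9 had 24.9 and 18.8 CPM.

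Oat encodes ornithine aminotransferase, a mitochondrial enzyme of ornithine and glutamate metabolism. Its level in β-cells was the lowest of the 12 classes. β-cells held 1.83 CPM in vehicle (61 UMIs) and 2.45 CPM in FAKi (94 UMIs). α-cells held 34.6 and 40.4 CPM, 18.9-fold (13.8 to 26.0) and 16.5-fold (13.0 to 21.2) more. The intervals of β-cells and acinar cluster 1, the next class, did not overlap in vehicle and overlapped in FAKi. Fibroblasts (315 and 245 CPM) and pericytes (278 and 306 CPM) stood above all other classes.

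Maf encodes c-MAF, a large MAF transcription factor related to MAFA. β-cells held 5 UMIs in vehicle and 3 in FAKi, the latter all in 1 cell of cluster 10. Macrophages (110 and 59.0 CPM) and fibroblasts (106 and 53.0 CPM) held the highest levels, with overlapping intervals, and endothelial cells held 39.4 and 20.6 CPM. α- and δ-cells lay between 0.722 and 2.66 CPM.

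Cd81 encodes a tetraspanin, a membrane protein that organises other surface proteins, and was the only member counted in a large part of β-cells. β-cells held 32.2 CPM in vehicle (1071 UMIs, in 26.8% of cells) and 29.8 CPM in FAKi (1143 UMIs, in 23.8% of cells). α-cells held 292 and 236 CPM and δ-cells 323 and 306 CPM, while endothelial cells reached 1636 and 1604 CPM. The α-cell level was 9.07-fold (8.34 to 9.88) and 7.91-fold (7.31 to 8.56) that of β-cells, and the endothelial level was 50.8-fold (47.6 to 54.3) and 53.9-fold (50.2 to 57.8). Acinar cells, which had few Cd81 UMIs, held 19.9 to 40.8 CPM.

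Over the 9 genes, the median log2 ratio of β- over α-cells, with 1 CPM added to each level, was -2.31 in vehicle and -2.11 in FAKi, against -0.52 and -0.60 over all genes tested. A gene was tested (held against a fold, with no p-value) if the compared groups held 100 or more of its UMIs, and it was called apart at a ratio of at least 1.5 after 1 CPM is added. Of the 9 genes, 2 were tested (Oat and Cd81), and both were at least 1.5-fold lower in β-cells in both libraries. Oat, with 61 and 94 UMIs in β-cells, reached 100 only with the UMIs of α-cells. In vehicle its direction was set by that minimum. In FAKi the minimum could also have been met with the higher level in β-cells. A level at least 1.5-fold lower was found for 45.1% of all tested genes in vehicle and 51.0% in FAKi, so that the call itself was common. The median ratio of β-cells over δ-cells was -2.30 and -2.52, against -0.56 and -0.54 over all tested genes. All 9 genes had the lower CPM in β-cells in both libraries, as had 76.0% and 77.3% of genes with any UMI. The median was -3.72 and -3.77 over ductal cells (all tested genes -1.01 and -1.03) and -4.55 and -4.06 over endothelial cells (all tested genes -0.79 and -0.75). Against the acinar clusters the medians lay between -1.17 and 0.18. Over all tested genes they were 1.17 and 0.98 for acinar cluster 1 and 2.04 and 1.88 for acinar cluster 2. Several members had few or no UMIs in both β- and acinar cells, which with 1 CPM added gives a ratio near 0, while Ldha and Oat were lower in β-cells than in either acinar cluster in both libraries. Acinar cells were much shallower (median of 1480 and 1140 UMIs per cell in cluster 1, against 30792.5 and 30427.5 in β-cells).

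The same picture was seen per cell. Leaving out Cd81, none of the other 8 genes had a UMI in 90.3% of β-cells in vehicle and 91.7% in FAKi. UMIs of 2 or more of these genes were found in 17 of 1076 and 4 of 1336 β-cells. In α-cells 45.8% and 46.1% had none of the 8 genes, in δ-cell cluster 6 23.4% and 26.2%, and in fibroblasts 4.55% and 7.94%, although all these cells were shallower than β-cells. Acinar cluster 1 had none in 93.8% and 94.3% of its cells.

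The 2 genes of dedifferentiation were rare. Aldh1a3 had 34 UMIs in all cells of both libraries. β-cells held 12 of them in vehicle (0.361 CPM) and 5 in FAKi (0.130 CPM), spread over clusters 0 (6 and 2 UMIs), 1 (1 and 0) and 10 (5 and 3), with up to 4 UMIs in 1 cell. No α-cell had a UMI, while δ-cells had 3 and 5 UMIs and fibroblasts 3 and 2. No order of classes could be read from these counts.

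Neurog3 had a clear pattern, and it was not one of β-cells. β-cells held 15 UMIs in vehicle (0.451 CPM) and 6 in FAKi (0.156 CPM). δ-cell cluster 6 held 57.7 CPM (48.3 to 68.4) and 45.4 CPM (37.6 to 54.4), cluster 8 held 5.50 and 0.680 CPM, α-cell cluster 9 held 40.8 and 14.6 CPM and α-cell cluster 5 had 1 UMI and 0 UMIs. Macrophages, T cells, B cells and acinar cells had none. The level of δ-cell cluster 6 was 10.5-fold (5.93 to 20.2) that of cluster 8 in vehicle, where 9 of the 13 UMIs of cluster 8 were in 1 cell, and 66.8-fold (18.1 to 558) in FAKi, where cluster 8 had 2 UMIs.

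The Neurog3 and Acot7 of α-cell cluster 9 came from its Sst-rich cells, a division chosen after the values were seen. Cells with at least 1% of their UMIs from Sst, 32 of 87 in vehicle and 51 of 168 in FAKi, held 35 of 36 and 24 of 24 Neurog3 UMIs of the cluster. They also held 20 of 22 and 30 of 31 Acot7 UMIs. Their Neurog3 level was 114 and 56.3 CPM and their Acot7 level 65.1 and 70.4 CPM. Hhex, a transcription factor of δ-cells, stood at 384 and 415 CPM in these cells and had no UMI in the remaining cells of cluster 9. Over the 24 combinations of class and library, Neurog3 had a Pearson correlation of 0.83 with Sst and Acot7 of 0.08, where Acot7 was also found at 12.3 and 29.1 CPM in fibroblasts.

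**Figure D2:**
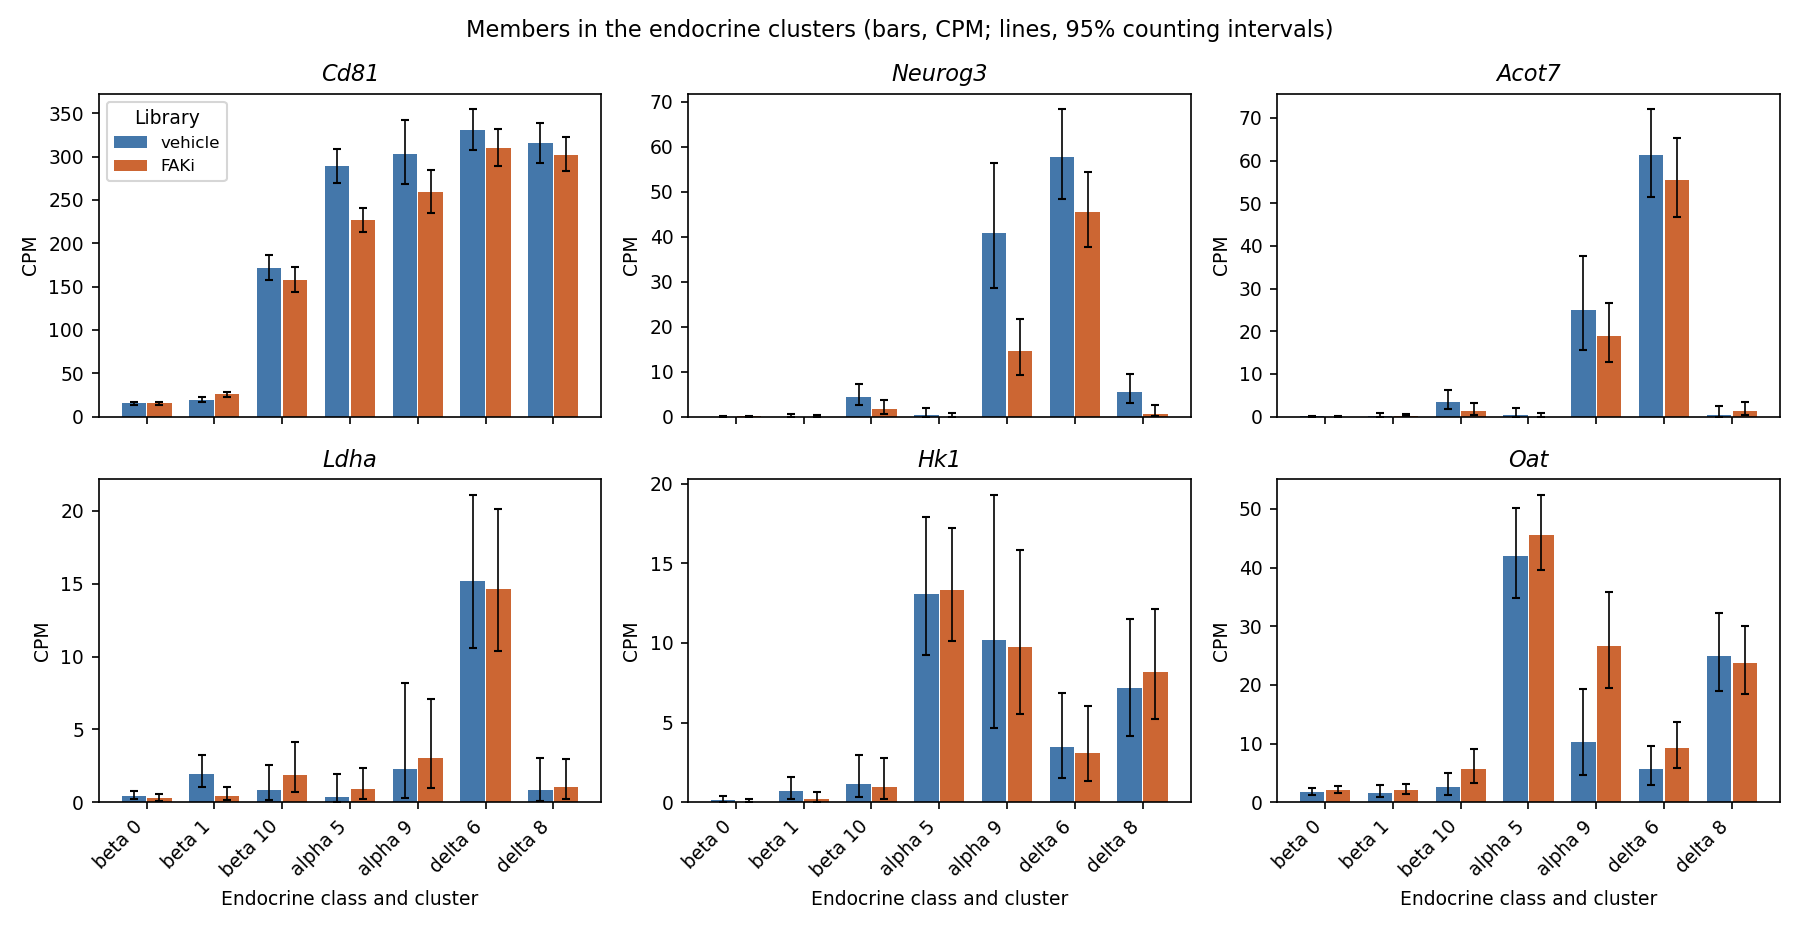
Bars give the CPM (vertical axis) of Cd81, Neurog3, Acot7, Ldha, Hk1 and Oat in the endocrine clusters (horizontal axis), vehicle beside FAKi, with lines for the 95% counting interval. Acot7 and Neurog3 are high in δ-cell cluster 6 and α-cell cluster 9, and Cd81 in cluster 10 (171 and 158 CPM) lies between the other β-cell clusters and the α- and δ-cells.

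The β-cell clusters were compared with each other in each library. Clusters were drawn by the authors from the expression of these same cells, so these ratios describe the clusters and are no test. Cluster 0 (650 and 675 cells, median of 34677 and 34237 UMIs) had the lowest levels of most members. Its Cd81 was at 15.3 and 15.1 CPM and Ldha at 0.442 and 0.287 CPM, while Acot7 had 1 UMI and 0 UMIs. Oat was an exception, at 1.77 and 2.18 CPM beside 1.66 and 2.12 CPM in cluster 1. Aldh1a3 was another, with 6 and 2 UMIs beside 1 and 0, as was Neurog3 in FAKi, with 1 UMI beside 0. Acinar cluster 2 held Cd81 at 22.5 and 19.9 CPM. With every cell thinned to 5000 UMIs, a Cd81 UMI was present in 6.65% (4.85 to 8.85) and 6.37% (4.65 to 8.49) of cluster 0 cells and in 10.9% (4.51 to 21.2) and 6.94% (2.29 to 15.5) of acinar cluster 2 cells. Thinning left out 3 and 0 cells of cluster 0 and 22 and 42 of acinar cluster 2 as too shallow. Without thinning the shares were 20.6% and 17.9% in cluster 0, at a median of 34677 and 34237 UMIs, and 25.6% and 22.8% in acinar cluster 2, at 7931 and 7280.5 UMIs. The Cd81 of cluster 0 was spread unevenly, with none in the median cell and up to 16 and 32 UMIs in 1 cell, and the part of free RNA in it was not tested.

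Cluster 1 (305 and 546 cells, median of 20070 and 16908 UMIs) was compared next. The median log2 ratio of the 9 genes was 0.23 in vehicle and 0.13 in FAKi, against -0.09 and -0.07 over all tested genes. Cd81 was 1.27-fold (1.04 to 1.55) higher in vehicle, at 19.4 CPM, and 1.68-fold (1.44 to 1.97) higher in FAKi, at 25.5 CPM. It was the only tested member. With 1 CPM added it passed 1.5-fold in FAKi and not in vehicle, but in cells under 5% mitochondrial counts it passed in vehicle and not in FAKi, and with 10 CPM added it passed in neither. The difference between the libraries was not tested. Among all genes 2.60% in vehicle and 1.81% in FAKi were at least 1.5-fold apart between these clusters. Ldha in cluster 1 in vehicle stood at 1.94 CPM on 14 UMIs, 4.40-fold (1.82 to 11.1) over cluster 0, and in FAKi at 0.461 CPM on 5 UMIs, a ratio of 1.60 (0.401 to 5.87). The 8 acinar markers summed to 7994 and 6977 CPM in cluster 1, against 150 and 300 CPM in cluster 0. In vehicle the 5 T-cell markers summed to 12.9 CPM in cluster 1 against 1.02 CPM in cluster 0, the mesenchymal markers to 15.5 against 4.24 CPM and the endothelial markers to 6.65 against 1.85 CPM. Ldha stood at 298 CPM in T cells, 137 CPM in fibroblasts and 243 CPM in endothelial cells of that library. The part of these other cells in the differences was not tested.

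Cluster 10 (121 and 115 cells, median of 24960 and 26713 UMIs) had higher Cd81, and few UMIs of the other members. None of the 9 genes had a lower CPM in cluster 10 than in cluster 0 in either library, and the median log2 ratio was 0.94 and 1.08, against 0.18 over all tested genes in both. A lower CPM in cluster 10 was found for 34.4% and 32.4% of genes with any UMI. Cd81 stood at 171 CPM (158 to 186) in vehicle and 158 CPM (144 to 172) in FAKi, beside 15.3 and 15.1 CPM in cluster 0, ratios of 11.2 (9.80 to 12.8) and 10.4 (9.07 to 11.9). A Cd81 UMI was present in 79.3% and 78.3% of cluster 10 cells. After thinning to 5000 UMIs these shares were 56.6% and 54.7%, beside 69.8% and 67.1% in α-cells. It left out 15 and 9 cells of cluster 10. Cd81 was the only tested member, and 8.77% of all tested genes in vehicle and 10.8% in FAKi were at least 1.5-fold higher in cluster 10.

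The other members of cluster 10 rested on few counts. Neurog3 had 15 UMIs in vehicle and 5 in FAKi, or 4.39 and 1.58 CPM. Cluster 0 had no UMI in vehicle and 1 in FAKi, where the ratio was 38.6 (4.32 to 1826). Acot7 had 12 UMIs in vehicle, 79.6-fold (11.8 to 3401) over cluster 0, and 4 UMIs in FAKi, where cluster 0 had none. Hk1 had 4 and 3 UMIs, ratios of 8.84 (1.5 to 60.3) and 23.2 (1.86 to 1216). Oat stood at 2.63 and 5.70 CPM, ratios of 1.49 (0.636 to 3.12) and 2.62 (1.45 to 4.55), and the interval in vehicle included 1.

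Cluster 10 also held the hormones of other islet cells, with Ppy at 15096 and 12054 CPM, Gcg at 10276 and 11956 CPM and Sst at 7015 and 8457 CPM. Doublet calling marked 12 of its 121 cells in vehicle (9.92%) and 18 of 115 in FAKi (15.7%), and none in cluster 0. The cluster was therefore divided, after its values were seen, by whether Gcg, Sst, Ppy and Pyy together made up at least 1% of a cell's UMIs. The 73 cells under 1% in each library still held Cd81 at 205 CPM (184 to 228) and 179 CPM (161 to 199), 13.4-fold (11.6 to 15.6) and 11.8-fold (10.2 to 13.7) over cluster 0. The 48 and 42 cells at or above 1% held 137 and 123 CPM. Without called doublets the log2 ratio of Cd81 was 3.42 and 3.37, beside 3.40 and 3.30 with them. Markers of other cell types were also higher in cluster 10 than in cluster 0. The 8 acinar markers summed to 1723 and 1398 CPM against 150 and 300 CPM, the 7 ductal markers to 409 and 397 CPM against 281 and 220 CPM, the 7 mesenchymal markers to 26.6 and 8.24 CPM against 4.24 and 2.46 CPM, and the 6 endothelial markers to 11.7 and 2.85 CPM against 1.85 and 1.89 CPM. Their part in the higher Cd81 was not tested.

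The remaining members did not all follow Cd81. All 12 Acot7 UMIs of cluster 10 in vehicle, and 3 of 4 in FAKi, were in its 14 and 17 cells with at least 1% Sst. In the cells under 1% other hormones Acot7 had 0 and 1 UMIs, Hk1 0 and 1 and Ldha 0 and 4, the last all in 1 cell. The median log2 ratio of the 9 genes over cluster 0 then became -0.01 in vehicle and 0.97 in FAKi, where the 3 UMIs of Maf and the 3 of Aldh1a3 were also in 1 cell each. Neurog3 kept 9 and 2 UMIs there and Aldh1a3 5 and 3. Oat had 3 and 6 UMIs there, with ratios of 0.991 (0.196 to 3.11) and 1.42 (0.501 to 3.31), and both intervals included 1. The cells at or above 1% held Oat at 3.53 and 9.84 CPM.

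In the cells of cluster 10 under 1% other hormones, Cd81 had one of the highest ratios of any gene. Only 2 of 9107 tested genes in vehicle and 2 of 9142 in FAKi had a higher log2 ratio over cluster 0, while 11.1% and 11.0% were at least 1.5-fold higher. Some other tetraspanins were higher as well, among them Tspan8 at 30.8-fold and 27.1-fold and Tspan7 at 1.92-fold and 1.88-fold, while Cd63 was lower, with ratios of 0.690 and 0.741. Of 15 genes of β-cell identity, 6 in vehicle and 5 in FAKi were at least 1.5-fold lower, as were 5.16% and 4.07% of all tested genes. Mafa, a transcription factor of mature β-cells, had ratios of 0.305 and 0.312. The glucose-6-phosphatase subunit G6pc2 had 0.439 and 0.440, the peptide Ucn3 0.481 and 0.470, the channel Trpm5 0.353 and 0.459 and the glucose transporter Slc2a2 0.640 and 0.684. Ins2 was close to even at 0.941 and 0.901, as was Pdx1 at 1.03 and 1.13.

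**Figure D3:**
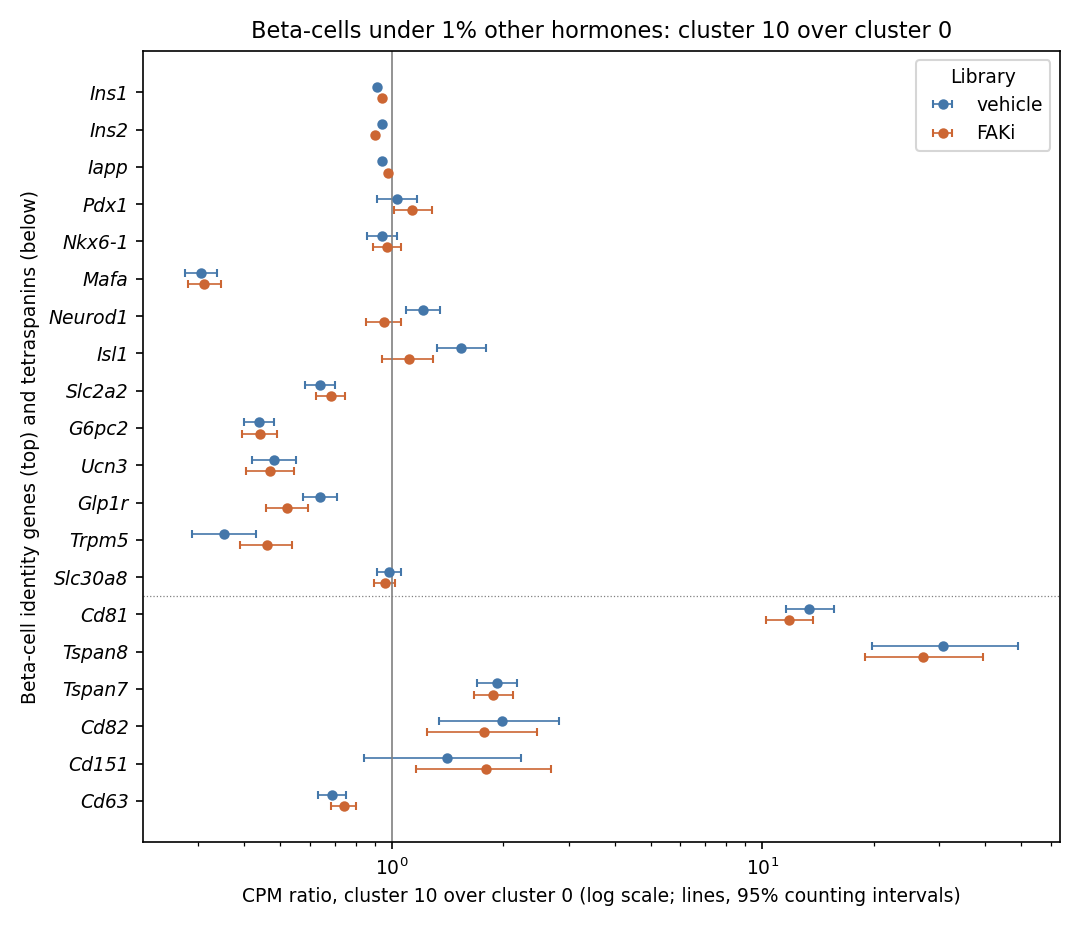
Each point is the CPM ratio of cluster 10 over cluster 0 (horizontal axis, log scale) in cells under 1% other hormones, with its 95% counting interval, for 14 of the genes of β-cell identity and for tetraspanins (vertical axis), in both libraries. Mafa lies at 0.305 and 0.312, Ins2 near 1, and Cd81 at 13.4 and 11.8.

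Within cluster 0 a few cells had many Cd81 UMIs, 22 of 650 and 20 of 675 with at least 5 (a division chosen after the values were seen). Their Mafa was at 875 and 619 CPM, against 770 and 625 CPM in the cells with no Cd81 UMI. In cluster 1 the cells with at least 5 Cd81 UMIs, 6 and 16, held Mafa at 511 and 417 CPM and those with none at 629 and 533 CPM. In the former cells G6pc2 was also lower (357 and 243 against 528 and 356 CPM). Ucn3 was higher in them (302 and 362 against 255 and 243 CPM). Within cluster 10 the cells with at least 5 Cd81 UMIs held Mafa at 275 and 187 CPM and those with none at 540 and 413 CPM. Median depths were 31147 and 32542 UMIs against 6871 and 16840. Ucn3 (135 and 105 against 207 and 120 CPM) was also lower. Slc2a2 was higher in vehicle (269 against 235 CPM) and lower in FAKi (228 against 295 CPM). Median markers of other non-acinar cell types were 2848 and 2627 against 6899 and 2149 CPM. Other hormones were at a median of 0.0706% and 0.125% against 0.473% and 0.171%. Their part was not tested.

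The next question was whether members differed in β-cells between the FAKi and vehicle libraries. Most counts were too low to show a difference. Over all β-cells, 8 of the 9 genes had a lower CPM in FAKi, with Oat as the exception, and the median log2 ratio was -0.23, against -0.04 over all tested genes. A lower CPM in FAKi was also found for 59.9% of genes with any UMI. Some marker sums of other cell types were lower in the β-cells of FAKi too, the T-cell markers at 0.130 against 3.49 CPM, the mesenchymal markers at 2.84 against 8.98 CPM, the endothelial markers at 2.11 against 3.91 CPM and the ductal markers at 231 against 292 CPM. Others were higher, the acinar markers at 2279 against 2012 CPM, the α-cell markers at 1848 against 1529 CPM and the δ-cell markers at 817 against 809 CPM. Their part was not tested. The 2 tested genes, Oat and Cd81, were both less than 1.5-fold apart, as were most genes, since 2.34% of all tested genes passed that fold. Cd81 had a ratio of 0.925 (0.851 to 1.01) and Oat of 1.34 (0.958 to 1.88). Both intervals included 1. Of the genes with fewer UMIs, Neurog3 had a ratio of 0.347 (0.110 to 0.946) on 15 and 6 UMIs. Without the cell holding most UMIs in each library, 10 and 4 UMIs were left. The ratio was again 0.347, and its wider interval (0.0794 to 1.20) included 1. Its UMIs lay in cluster 10, but for 1 in FAKi. Ldha had a ratio of 0.578 (0.300 to 1.09) and Acot7 of 0.372 (0.117 to 1.03), and these intervals included 1.

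By cluster, no tested member passed 1.5-fold, where 2.70% of all tested genes did in cluster 0, 3.05% in cluster 1 and 3.48% in cluster 10. Cd81 had ratios of 0.991 (0.854 to 1.15) in cluster 0, 1.31 (1.07 to 1.62) in cluster 1 and 0.920 (0.815 to 1.04) in cluster 10. In cluster 1 its share after thinning was 6.39% (3.77 to 10.0) in vehicle and 11.0% (8.26 to 14.3) in FAKi, and these intervals overlapped. The log2 ratio in cluster 1 was 0.38, and 0.05 in the cells under 5% mitochondrial counts. Ldha in cluster 1 had 14 UMIs in vehicle and 5 in FAKi, a ratio of 0.237 (0.0669 to 0.697). In the same cluster the T-cell markers summed to 12.9 CPM in vehicle and 0.0921 CPM in FAKi, the mesenchymal markers to 15.5 and 2.12 CPM and the endothelial markers to 6.65 and 2.39 CPM, and their part in the Ldha ratio was not tested. Oat in cluster 10 had 9 UMIs and 18, a ratio of 2.17 (0.924 to 5.47).

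**Figure D4:**
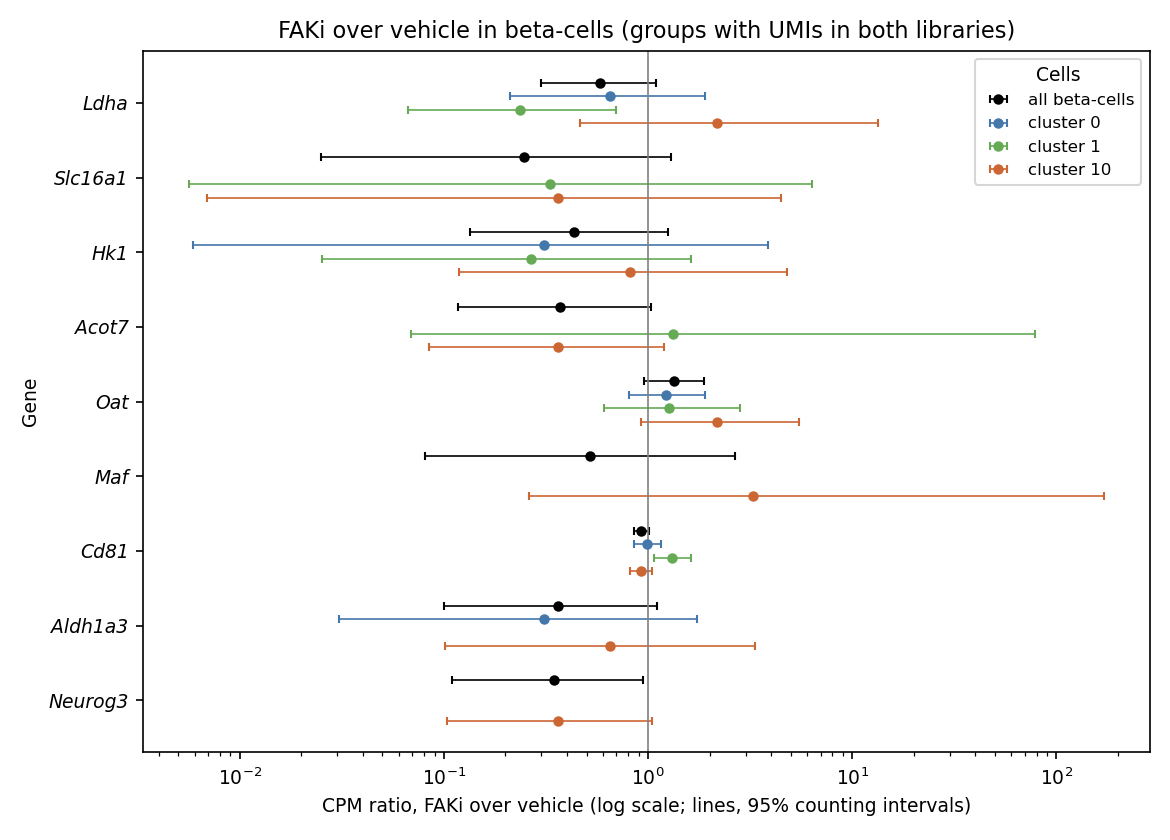
Points give the CPM ratio of FAKi over vehicle (horizontal axis, log scale) with 95% counting intervals for each gene (vertical axis), in all β-cells and in clusters 0, 1 and 10, for groups with UMIs in both libraries. Intervals are narrow for Cd81 alone, which lies between 0.920 and 1.31.

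Outside β-cells, Cd81 was lower in α-cells in FAKi, at 236 against 292 CPM, a ratio of 0.807 (0.745 to 0.874). In the same cells Ppy stood at 16442 against 45503 CPM and Pyy at 17876 against 40019 CPM. The endothelial markers summed to 22.6 against 2.64 CPM, and the part of these shifts was not tested. Neurog3 in α-cell cluster 9 had a ratio of 0.358 (0.204 to 0.617), where the Sst-rich cells made up 32 of 87 cells in vehicle and 51 of 168 in FAKi, and in δ-cell cluster 6 of 0.787 (0.609 to 1.02).

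Relatives of the members were measured in the same β-cells. Ldhb, the other main lactate dehydrogenase subunit, stood at 6.49 and 6.38 CPM in β-cells, near the 5.80 and 7.15 CPM of α-cells. The lactate exporter Slc16a3 had 1 UMI and 0 UMIs, and Slc16a7, a transporter of pyruvate, 0.270 and 0.365 CPM, against 37.7 and 55.4 CPM in δ-cell cluster 6. Bsg, a chaperone of lactate transporters, was present at 293 and 295 CPM. Hk2, another hexokinase of high affinity, had 3 UMIs and 0 UMIs. The shuttle enzymes Gpd2 (49.7 and 48.5 CPM) and Mdh1 (154 and 145 CPM), which carry reducing equivalents of glycolysis to mitochondria, were also present.

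Among MAF factors, Mafa stood at 700 CPM in vehicle and 566 CPM in FAKi, a ratio of 0.808 (0.793 to 0.823). Among tetraspanins, Cd9 stood at 1.83 and 1.59 CPM in β-cells against 46.7 and 30.4 CPM in α-cells, and Cd63 stood at 476 and 511 CPM in β-cells. Aldh1a1, a relative of Aldh1a3, had 9 and 4 UMIs in β-cells.

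Of 14 other genes named as disallowed in β-cells, among them Pdgfra, Igfbp4, Cxcl12, Smad3 and Zfp36l1, 1 was tested between the libraries in β-cells. This was Lmo4, a transcriptional cofactor, at 2.50 CPM in FAKi and 1.62 CPM in vehicle (1.54-fold, 1.09 to 2.19, and under 1.5-fold with 1 CPM added). Igfbp4, which binds insulin-like growth factors, was at 0.962 and 0.573 CPM in β-cells and at 519 and 297 CPM in endothelial cells. Fev, a transcription factor of endocrine progenitors, stood in cluster 10 at 5.56 and 10.1 CPM and in cluster 0 at 0.662 and 0.657 CPM, ratios of 8.40 (4.04 to 17.8) and 15.4 (8.23 to 30.1).

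Genes with the most similar levels over the 24 combinations of class and library differed between members. These Pearson correlations are descriptions, since the 24 points share 2 libraries, differ in depth and include the FAKi T and B cells. Ldha was most like Ahnak (0.958), Cyba (0.95) and Zfp36l1 (0.949), the last one itself among the 14 disallowed genes. Hk1 was most like Maml2 (0.955) and Cd81 most like Pdcl3 (0.946), Maf1 (0.939) and Itgb1 (0.937). Neurog3 was most like Cacna2d3 (0.983), Khdrbs2 (0.977) and Cbln4 (0.976). Slc16a1 was most like Gimap9 (0.894), Oat like Adamts10 (0.891), Maf like P2rx7 (0.881) and Acot7 like Wdr89 (0.817). Aldh1a3 was left out for its low count. Between members the correlation was 0.88 for Hk1 and Cd81 and 0.84 for Slc16a1 and Hk1.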

How the data were processed

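Islet cells of 1 vehicle and 1 FAKi library were read from a deposited table of raw UMI counts. The authors made these counts with CellRanger from droplet-based 3′ libraries (mm10 per the labels), aggregated the libraries, removed cells at or above 8% mitochondrial counts with Seurat 3.1, normalized with SCRAN and integrated with scanorama. Those normalized values were not used here. Clusters and cell types are the authors' annotation.

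UMIs were summed per group and library and scaled to CPM. Log2 ratios carry a pseudocount of 1 CPM. Intervals are 95% (Poisson, conditional binomial, Clopper-Pearson). Genes with at least 100 UMIs were tested against a fold of 1.5. Doublets were called per library with scrublet in scanpy 1.11.5 (68 and 57 cells) and kept, except in an alternative. Thinning used seed 0. No p-values are given, as there is 1 library per condition. Members and gene lists were chosen with earlier results of these data known. Named genes are the 9 members, their relatives in fixed lists, and the most correlated genes. Some relatives are not reported here. The intervals were tested on simulated counts drawn from the model that they assume. This cannot show how they hold for UMIs gathered in few cells. Tables were handled with pandas 2.3.3, intervals computed with scipy 1.17.1, and figures drawn with matplotlib 3.10.9 (Python 3.11.15, numpy 2.4.6).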

Additional observations from a re-analysis of the deposited data

Results flagged for a closer look

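For Oat and Maf, classes outside the β-cells with at least 100 UMIs were at least 1.5-fold apart between the libraries in both directions. These differences between classes were not tested. The log2 ratio of FAKi over vehicle for Oat was 0.73 in ductal cells (87.0 against 52.0 CPM) and -2.30 in T cells (19.2 against 98.4 CPM), and 0.91 and -2.05 without the cell holding most UMIs in each library. The FAKi T cells are the 28 cells rich in β-cell markers, and 51 of the 97 Oat UMIs of the vehicle T cells were in 1 cell. For Maf it was 0.64 in ductal cells (26.7 against 16.8 CPM), -0.90 in endothelial cells (20.6 against 39.4 CPM), -0.99 in fibroblasts (53.0 against 106 CPM) and -0.89 in macrophages (59.0 against 110 CPM). Without the top cells the ductal value of Maf was -0.01, so that it rested on few cells, while the other values were -0.83, -1.21 and -1.0.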

How the results depend on the processing

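Over 526 pairs of a result and an alternative, 291 of main results and 211 of others stayed within their counting interval (counts of members within 1.5 times), 18 and 5 moved beyond it and 1 reversed. No paired analysis was possible because the shared lane numbers do not mark separate samples, and no library could be left out. The reversed result was the median log2 ratio of the 9 genes in cluster 10 over cluster 0 of the vehicle library, which was -0.01 in cells under 1% other islet hormones, an alternative added after seeing the data. With a pseudocount of 0.1 CPM the medians of FAKi over vehicle were -0.85 in all β-cells, -0.53 in cluster 0 and -0.97 in cluster 1, and those of cluster 10 over cluster 0 were 2.38 and 2.90. With 10 CPM the log2 ratio of Cd81 in cluster 10 was 2.84 and 2.74, and no member was 1.5-fold apart between clusters 1 and 0 in the FAKi library (0 against 1). In cells under 5% mitochondrial counts the log2 ratio of Cd81 between libraries was 0.31 in cluster 0, that of cluster 10 over cluster 0 was 3.82 in vehicle, and the number of members apart between clusters 1 and 0 was 1 in vehicle and 0 in FAKi. With genes of at least 20 UMIs, 2 of 3 members with that many were apart between libraries in cluster 10 (10.4% of all tested genes), 1 of 3 between clusters 1 and 0 in vehicle (4.49%) and 2 of 2 between clusters 10 and 0 in FAKi (18%). With means over cells, Cd81 in β- over α-cells was -2.90 and -2.69. With cells thinned to 1000 UMIs the median rank of β-cells by share of cells was 1, against 2.5. The causes were not tested. The number of all genes at least 1.5-fold apart between libraries in β-cells, 259, was 50 with a pseudocount of 10 CPM, 450 with 0.1 CPM and 418 with means over cells, and in cluster 10 it was 634 with means over cells and 1073 with genes of at least 20 UMIs, against 185. Counts were low for Slc16a1, Hk1, Maf and Aldh1a3, with at most 12 UMIs in β-cells of each library.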
